A study of Mus musculus with 13 samples.

Results

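The Gnas and Peg13 imprinted domains were followed through 5 genes of a table of 23217. They were chosen by gene symbol, with earlier results of these data known. Gnas and its antisense transcript Nespas lie on chromosome 2, and Peg13, Trappc9 and Kcnk9 lie on chromosome 15. All 5 symbols were found, and 4 of them passed the filter on low values, a mean of at least 1 FPKM over all embryos, as did 12755 genes in all. FPKM counts fragments relative to transcript length and to the size of the library, so levels of different genes are compared per length.

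Polyadenylated RNA of 13 whole mouse embryos at embryonic day 9.5, all on the C57BL/6J strain background, was sequenced one embryo per library. The labels call 3 embryos xHet and 10 xHomo under genotype and define neither word. From what is known of the study, fathers heterozygous or homozygous for a mutation of Tet1, an enzyme that oxidizes methylated cytosine, sired them. The question was whether imprints, the methylation marks that tie expression to the maternal or paternal gene copy, were erased normally in those fathers. Litter, sex and library batch are not in the labels, so p-values measure the spread between these embryos only. The values do not separate the parental copies. One library stood apart: in xHomo embryo 3, 10.2% of all genes tested lay 1 log2 unit or more away from the xHet mean, against 1.45% to 4.56% in the other xHomo embryos.

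Imprinting in both domains is partial or differs by tissue. Gnas encodes the stimulatory G protein alpha subunit, which couples hormone receptors to adenylyl cyclase and so to cyclic AMP. That transcript comes from both copies in most tissues and mainly from the maternal copy in a few, while alternative first exons of the same locus are maternal (the secretory protein Nesp55) or paternal (the long form XL-alpha-s and the untranslated exon 1A transcript). Nespas is a noncoding RNA read from the paternal copy against the Nesp55 exon. Peg13 is a paternally expressed noncoding RNA within an intron of Trappc9, and in brain Trappc9 and Kcnk9 are read mainly from the maternal copy. Trappc9 encodes a subunit of the TRAPP vesicle-tethering complex, and Kcnk9 encodes the potassium leak channel TASK-3.

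The way the loci overlap limits what each value holds. In the deposited table Gnas and Nespas carry the same locus (mm9, chromosome 2, 174106738 to 174172243), and Peg13 and Trappc9 share another (mm9, chromosome 15, 72420050 to 72891634). Kcnk9 lies apart from them (mm9, chromosome 15, 72342549 to 72376709). In the GENCODE annotation of a later build, GRCm38, the spans of Gnas on the plus strand and Nespas on the minus strand share 11117 bases, and Peg13 lies inside the Trappc9 span on the same strand. The Gnas row joins 4 start sites in 1 value, so the Nesp55, XL-alpha-s, exon 1A and stimulatory G protein transcripts were not separated. Whether the quantification used strand is not given in the sources used here, so reads of Gnas and Nespas may have been shared. Strand could not separate reads of Peg13 and Trappc9 where they overlap, so these may have been shared in either case.

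RefSeq windows of the bases before a transcript start were found for 1 of the 5 genes, Gnas. Of its 4 windows 2 are shown, the most upstream and the most downstream. The windows were not matched to the 4 start sites that the Gnas row joins. Each holds 250 bases on the plus strand of GRCm38, with every CG, the dinucleotide at which imprints are set, in capitals. The first ends at the base before the start of the upstream transcripts at 174284320 (window chr2:174284070-174284319), and it lies inside the Nespas span. The second ends before the start at 174330006 (window chr2:174329756-174330005), the most downstream of the 4.
Gnas upstream start: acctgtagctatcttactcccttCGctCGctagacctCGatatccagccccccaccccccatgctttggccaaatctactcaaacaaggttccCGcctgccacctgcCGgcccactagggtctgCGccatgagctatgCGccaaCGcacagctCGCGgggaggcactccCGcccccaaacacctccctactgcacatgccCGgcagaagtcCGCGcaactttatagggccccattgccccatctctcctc
Gnas downstream start: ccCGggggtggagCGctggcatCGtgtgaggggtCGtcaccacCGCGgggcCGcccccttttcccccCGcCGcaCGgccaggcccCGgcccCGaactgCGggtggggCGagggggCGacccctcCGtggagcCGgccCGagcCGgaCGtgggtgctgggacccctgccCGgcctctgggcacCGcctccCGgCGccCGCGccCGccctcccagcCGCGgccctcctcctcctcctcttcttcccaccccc
The upstream window holds 14 CG and the downstream window 29. At least as many were found in 29.4% and 6.78% of all 32851 RefSeq windows of this length, whose median was 6. Nothing in the table measures methylation at these bases.

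Gnas was among the most abundant messages of the embryo, with 0.676% of genes ranked above it by mean FPKM. Its level was 581, 563 and 563 FPKM in the 3 xHet embryos. In the xHomo embryos it ran from 591 through a median of 660 to 748 FPKM. The lowest xHomo embryos were 2 and 4, with 591 and 595 FPKM, and the highest were 7, 8 and 9, with 741, 748 and 742 FPKM. Every xHomo embryo was above every xHet embryo, which was so for 1.66% of genes tested.

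The mean of Gnas was 569 ± 10.6 FPKM (SD, n = 3) in xHet and 669 ± 59.7 FPKM (SD, n = 10) in xHomo embryos. The log2 difference was 0.23 (SE 0.10) on the log2(FPKM+1) scale. It had an unadjusted p of 0.0454 and did not pass in limma (adjusted p = 0.526). In limma 0.0235% of genes passed and 7.63% were higher with an unadjusted p under 0.05. An exact permutation test of Gnas alone gave p = 0.0140 (two-sided, over all splits of the embryos into 3 and 10, smallest possible 0.0035). Adjusted over all genes it gave p = 0.461, where many genes must reach that smallest p before any can pass. With limma array weights, which give embryos far from their group less weight, Gnas passed at a log2 difference of 0.27 (adjusted p = 0.0149), as did 21.8% of all genes. Without xHomo embryo 3 the difference was 0.24.

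The separation of Gnas depended on how libraries were scaled. Rescaled so that each library had the same sum (TPM), Gnas stood at 1019 to 1035 in the xHet and 1012 to 1266 in the xHomo embryos. xHomo embryo 2 was then below all xHet embryos and the other 9 were above them. After quantile normalization the log2 difference fell to 0.06 (limma adjusted p = 0.751). Summed FPKM was 543948 to 570161 in xHet embryos and 500126 to 662936 in xHomo embryos, with the highest sums in xHomo embryos 7, 8 and 9, the same 3 in which Gnas FPKM was highest.

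Nespas lay at the low end of what was tested, with 54.6% of genes ranked above it. The xHet embryos 1 to 3 had 1.49, 1.26 and 1.27 FPKM. Among xHomo embryos it was lowest in embryo 8 at 0.59 FPKM, had a median of 0.95 FPKM and was highest in embryos 10 and 1 at 1.29 and 1.28 FPKM. Those 2 embryos fell within the xHet range, and the other 8 were below the lowest xHet embryo.

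As group means Nespas was 1.34 ± 0.13 FPKM (SD, n = 3) in xHet and 0.969 ± 0.226 FPKM (SD, n = 10) in xHomo embryos. The log2 difference of -0.26 (SE 0.13) did not pass in limma (adjusted p = 0.546, unadjusted 0.0622), where 1.72% of genes were lower with an unadjusted p under 0.05. By itself it gave an exact permutation p of 0.0420, and adjusted over all genes 0.514. After rescaling to TPM all 10 xHomo embryos were below the xHet embryos, at 0.890 to 2.21 against 2.31 to 2.61, which was so for 1.20% of genes. At so low a level the size rests on the pseudocount: it was -0.46 with 0.1 and -0.09 with 5 in place of 1. The sign was negative in all 24 alternative fits of Nespas, with no pass in any of them.

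**Figure D1:**
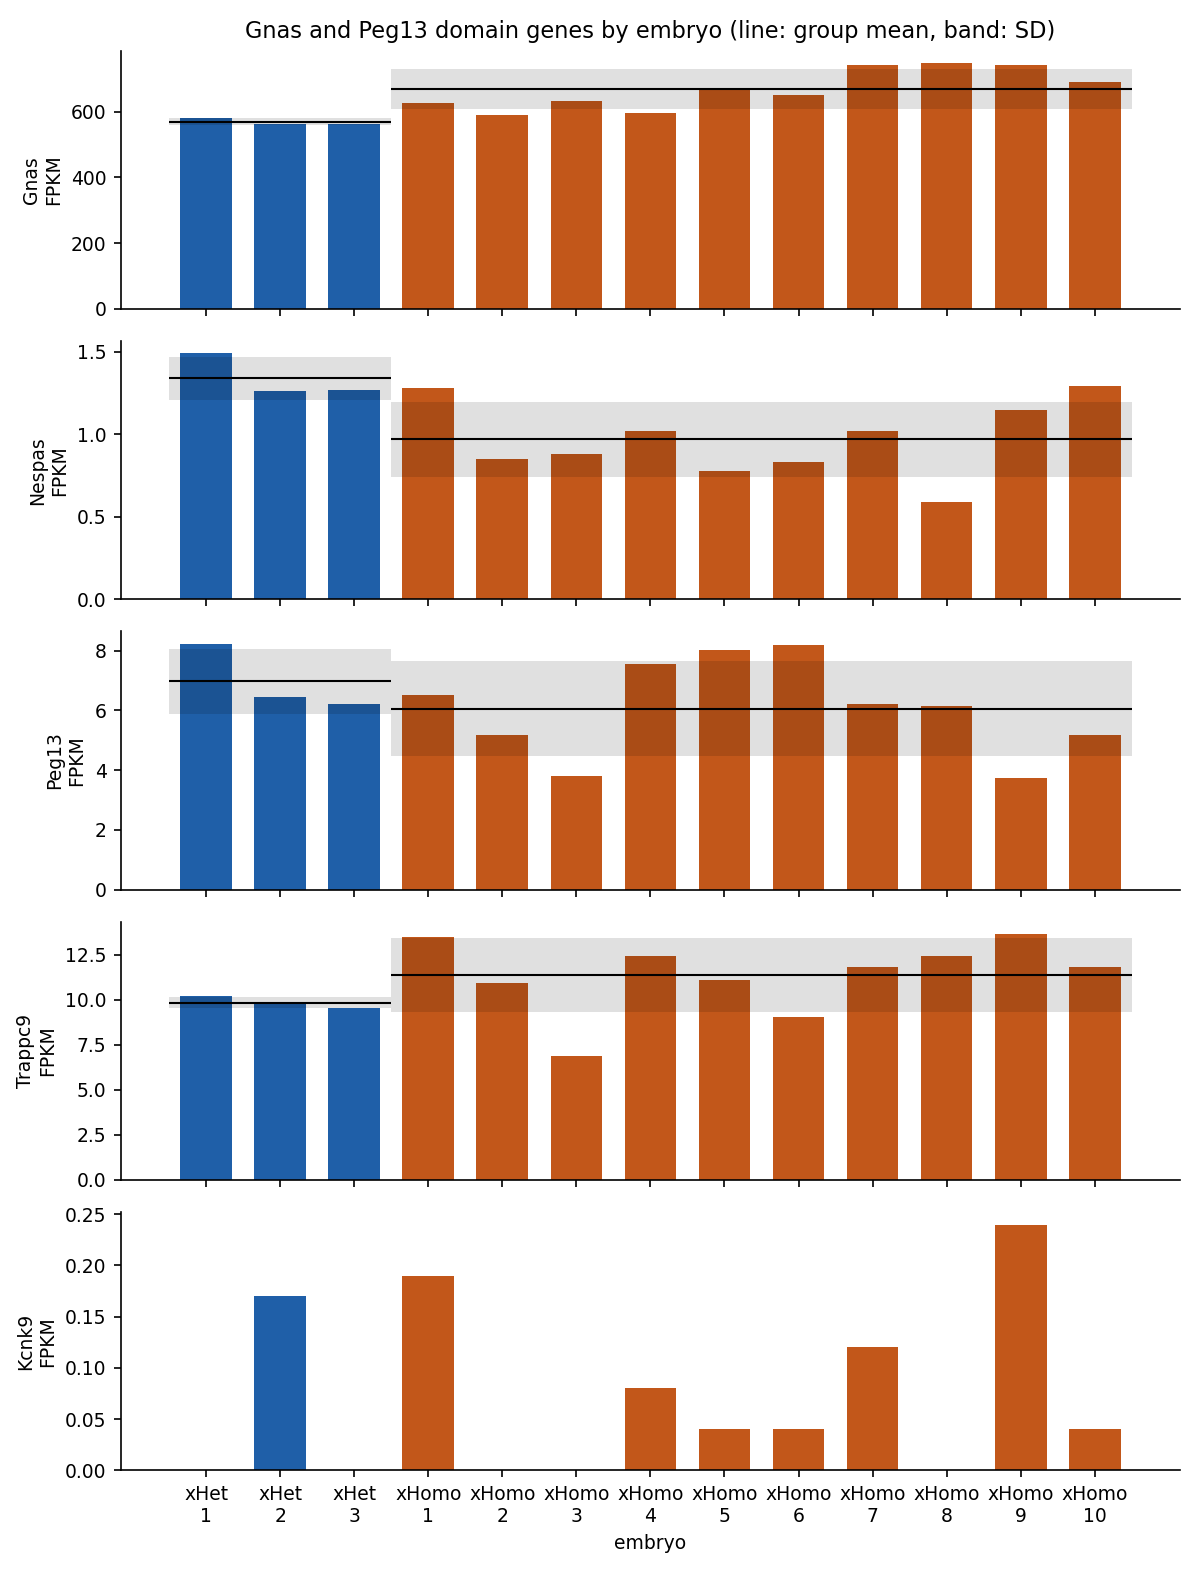
FPKM (y axes, from 0) of the 5 genes in each of the 13 embryos (x axis), xHet in blue and xHomo in orange, with the group mean as a line and the SD as a band, both left out for Kcnk9. Gnas is higher in all 10 xHomo embryos than in any xHet embryo, while Nespas is below the xHet range in 8 of 10 and Peg13 is lowest in xHomo embryos 3 and 9.

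Because scaling moves both genes of a domain alike, the ratio of the antisense to the sense gene was taken within each embryo. Nespas was 0.256%, 0.224% and 0.226% of Gnas by FPKM in xHet embryos 1 to 3. In the xHomo embryos the share ran from 0.0789% in embryo 8 through a median of 0.141% to 0.204% in embryo 1. The groups did not overlap: all 10 xHomo embryos were below the lowest xHet embryo.

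The mean share was 0.235% ± 0.0183 (SD, n = 3) against 0.146% ± 0.0360 (SD, n = 10). The log2 ratio was lower by -0.73 in xHomo embryos, with an exact permutation p of 0.00699 (two-sided), or 0.0140 adjusted over the 2 ratios tested. Gnas itself was high in xHomo embryos, and the ratio of a gene to Gnas was lower without overlap for 4.50% of 12477 genes above 0 in every embryo. A difference as low as that of Nespas or lower was found for 1.72% of them. The adjusted call was lost when any 1 xHet embryo was left out, where fewer splits also raise the smallest possible p. The difference itself was -0.665 without xHet embryo 1 and -0.76 without embryo 2 or embryo 3. Without xHet embryo 1, in which Nespas was highest, the exact permutation p adjusted over both ratios was 0.121 (unadjusted 0.0606), and without embryo 2 or embryo 3 it was 0.0606 (unadjusted 0.0303 each). Leaving out any 1 xHomo embryo gave adjusted values of 0.00909 to 0.0364. With a pseudocount of 1 the difference was -0.48 and kept its call.

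**Figure D2:**
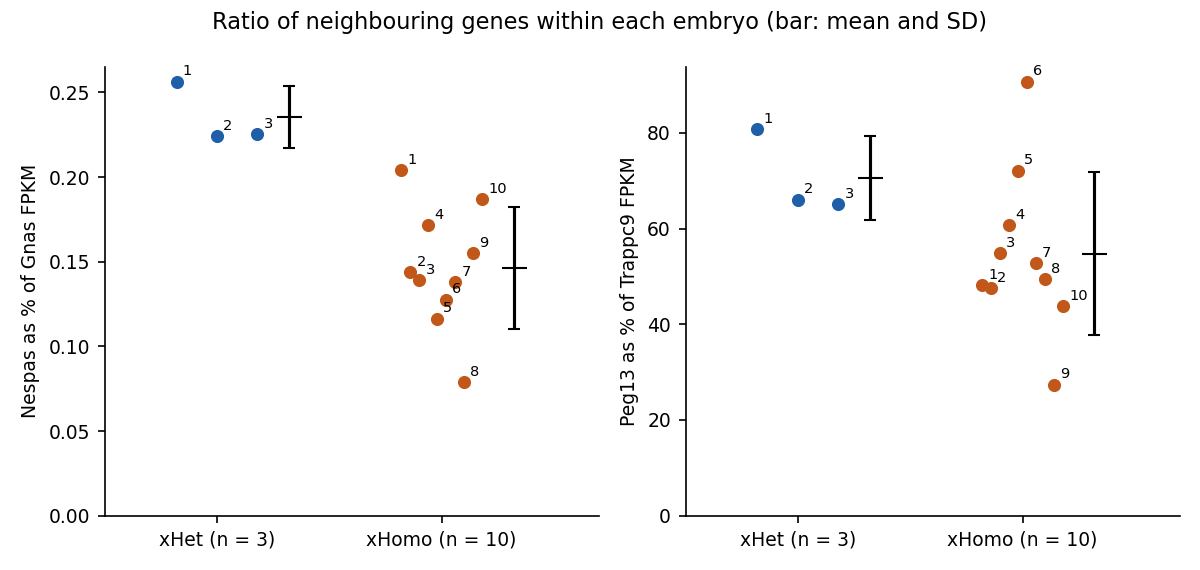
Nespas as a percentage of Gnas FPKM (left) and Peg13 as a percentage of Trappc9 FPKM (right), 1 numbered point per embryo, with the mean and SD of each group beside the points and axes from 0. The Nespas share is 0.224% to 0.256% in xHet and 0.0789% to 0.204% in xHomo embryos, without overlap, while the Peg13 share overlaps, with xHomo embryos 5 and 6 inside or above the xHet range.

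Next to the Gnas locus lie the genes of Mir296 and Mir298, microRNAs of the same imprinted cluster (mm9, chromosome 2, 174092548 to 174092626 and 174093005 to 174093086). Their mature 5p forms are shown from RefSeq with the seed, bases 2 to 8, in capitals, to identify them and to show that their seeds differ.
miR-296-5p: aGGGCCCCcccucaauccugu
miR-298-5p: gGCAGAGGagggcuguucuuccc
Mir296 was listed at 0 in all 3 xHet embryos and in 7 xHomo embryos. In xHomo embryos 1, 4 and 6 the entry was 58.4, 47.1 and 52.0 FPKM. Mir298 was listed at 54.8 FPKM in xHomo embryo 1 and at 0 in the other 12 embryos. Both rows are under 100 bases long, so few fragments give large FPKM, and libraries of polyadenylated RNA do not measure the mature microRNA. These 2 genes were chosen for naming after their values were seen.

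Of 14 listed neighbours on chromosome 2, 12 were tested, these 2 microRNA genes among them, and 0 passed in limma. The 10 others held 6 higher and 4 lower genes, with a median log2 difference of 0.02 against 0.05 over all genes tested. At an unadjusted p under 0.05 there were 0 of them, against 9.35% of all genes. Stx16, a syntaxin gene with a role in imprinting control at the human locus, stood at 26.0 to 27.2 FPKM in xHet and 13.5 to 25.9 FPKM in xHomo embryos. All 10 xHomo embryos were lower, which was so for 0.580% of genes, with a log2 difference of -0.26 (SE 0.15, limma adjusted p = 0.584). Atp5e, a subunit gene of mitochondrial ATP synthase, stood at 213 ± 12.6 and 265 ± 46.4 FPKM (SD, n = 3 and 10; limma adjusted p = 0.560). Rab22a, an endosomal GTPase gene, averaged 6.69 ± 0.511 FPKM in the xHet group and 7.58 ± 0.677 FPKM in the xHomo group (limma adjusted p = 0.584). Neighbours on both sides of Gnas thus included values above and below 0.

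Of the 4 tested members Peg13 varied most between xHomo embryos on the log2(FPKM+1) scale. Its level was 8.23, 6.46 and 6.23 FPKM in the 3 xHet embryos. In the xHomo embryos it was lowest in 9 and 3, at 3.74 and 3.79 FPKM, had a median of 6.19 FPKM and was highest in embryos 6, 5 and 4, at 8.19, 8.02 and 7.56 FPKM. These last 3 lay inside the xHet range, and 6 of 10 xHomo embryos were below it.

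The group means of Peg13 were 6.97 ± 1.09 FPKM (SD, n = 3) and 6.05 ± 1.60 FPKM (SD, n = 10). The log2 difference of -0.20 (SE 0.20) did not pass in limma (adjusted p = 0.759), and the exact permutation p was 0.353. Without xHet embryo 1 it was -0.09, without xHomo embryo 3 -0.15 and without xHomo embryo 9 -0.14. Its sign turned with Xist, a noncoding RNA that coats the inactive X and marks female embryos, as a covariate (0.04, limma adjusted p = 0.961). It turned also among the embryos with Xist under 1 FPKM (0.06, limma adjusted p = 0.806), a comparison chosen after seeing the data.

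Xist was under 1 FPKM in all 3 xHet embryos and in xHomo embryos 1, 4, 5, 6 and 8, and over 30 FPKM in the other 5. The groups thus differed in Xist too, which holds for the comparison of every member. Among xHomo embryos Peg13 was 6.16 to 8.19 FPKM in the 5 with little Xist and 3.74 to 6.22 FPKM in the 5 with Xist, so the ranges overlapped only between 6.16 and 6.22 FPKM. The summed level of 11 neuron marker genes was highest in xHomo embryos 4, 5 and 6, at 145, 137 and 132 FPKM, the 3 xHomo embryos with the highest Peg13. The sum was 63.2 to 72.6 FPKM in the xHet embryos, with 72.6 FPKM in embryo 1, where Peg13 was highest of all, and 42.0 to 106 FPKM in the other xHomo embryos. Where Peg13 was lowest, in xHomo embryos 3 and 9, the sum was 94.6 and 91.0 FPKM, above that of every xHet embryo. In whole embryos fewer cells of a type and less RNA per cell cannot be told apart, and the part of sex or of neurons in the Peg13 values was not tested.

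**Figure D3:**
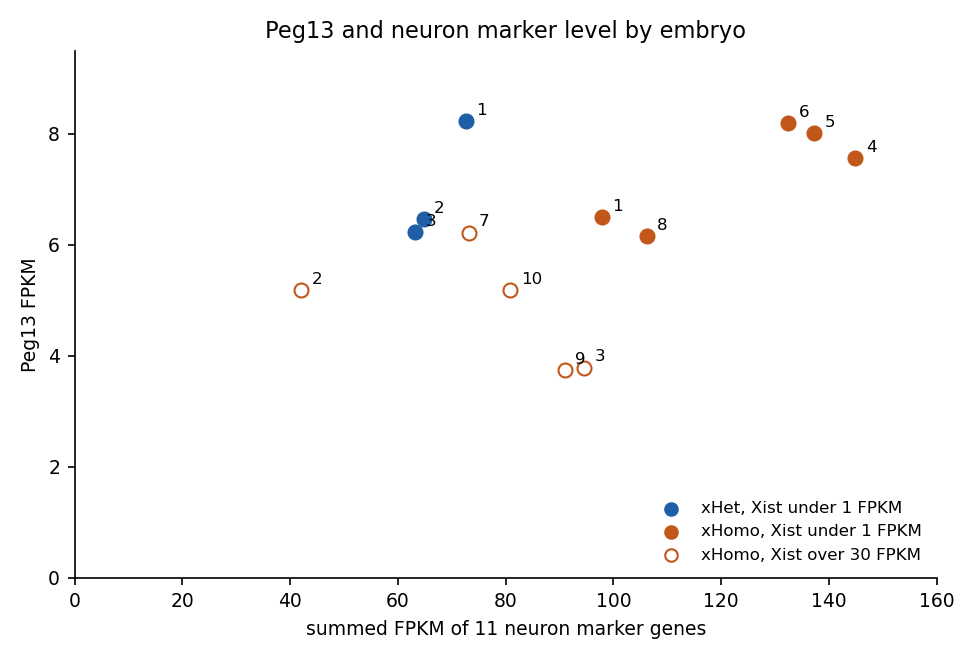
Peg13 FPKM (y axis) against the summed FPKM of 11 neuron marker genes (x axis), 1 numbered point per embryo, xHet in blue and xHomo in orange, open where Xist was over 30 FPKM. The 3 xHomo embryos with the highest neuron marker sums (132 to 145 FPKM) have 7.56 to 8.19 FPKM of Peg13, and the 5 open points lie at or below 6.22 FPKM.

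Trappc9, the host gene of Peg13, had 10.2, 9.78 and 9.57 FPKM in the 3 xHet embryos. Its lowest xHomo value was 6.90 FPKM in embryo 3, and it had a median of 11.8 FPKM and reached 13.7 FPKM in embryo 9. It was above the xHet range in 8 xHomo embryos and below it in 2, embryos 3 and 6. The means were 9.85 ± 0.315 FPKM (SD, n = 3) and 11.4 ± 2.06 FPKM (SD, n = 10), a log2 difference of 0.17 (SE 0.15, limma adjusted p = 0.740).

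One library weighed on the Trappc9 value. Without xHomo embryo 3 the log2 difference was 0.24 with an unadjusted limma p of 0.0320 and an adjusted p of 0.301. This was the library that stood apart over all genes. With array weights Trappc9 passed at 0.25 (limma adjusted p = 0.0228), again among 21.8% of genes.

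Within each embryo Peg13 was 80.8%, 66.1% and 65.1% of Trappc9 by FPKM in xHet embryos 1 to 3. Among xHomo embryos the share ran from 27.4% in embryo 9 through a median of 51.1% to 90.7% in embryo 6, and 8 of 10 were below the lowest xHet embryo. The log2 ratio differed by -0.42, which did not pass (exact permutation p = 0.171, also 0.171 adjusted over the 2 ratios). A difference as low or lower from Trappc9 was found for 10.2% of genes. In embryo 9 Trappc9 was at its highest and Peg13 at its lowest, while in embryo 6 the order was turned, with Peg13 at its highest and Trappc9 below the xHet range.

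Kcnk9 was at or near 0 in the whole embryo, under the filter on low values. The xHet entries were 0, 0.17 and 0 FPKM. Among xHomo embryos it was listed at 0 in embryos 2, 3 and 8, at 0.04 to 0.12 FPKM in embryos 4, 5, 6, 7 and 10, and at 0.19 and 0.24 FPKM in embryos 1 and 9. The groups overlapped, and limma without a filter gave an adjusted p of 0.936. At such levels no difference was detectable. The means of log2(FPKM+1) differed by 0.03, a value that the pseudocount largely sets and that is no fold.

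On the log2(FPKM+1) scale the SD among xHomo embryos was 0.13 for Gnas, 0.17 for Nespas, 0.27 for Trappc9 and 0.34 for Peg13. The median over all genes tested was 0.23. Gnas was thus among the steadier genes, at percentile 7.19 of all SDs, and Peg13 was at percentile 79.2. A pseudocount of 1 narrows the SD of a gene as low as Nespas.

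Whether genes of a domain varied together was asked across the 10 xHomo embryos for 4 pairs, and 0 passed after adjustment over them. The closest pair was Trappc9 with Kcnk9, whose Pearson r was 0.606 (permutation p = 0.0556, 0.223 when adjusted). Spearman's rho for it was 0.640 (permutation p = 0.0551, 0.220 when adjusted), and leaving out the 2 embryos farthest from the Trappc9 median gave r = 0.788. These rest on Kcnk9 values near 0. Between Peg13 and Trappc9 r was 0.175 (permutation p = 0.647, 0.809 when adjusted) and rho -0.170 (permutation p = 0.640, 0.806 when adjusted). That r was -0.34 without xHomo embryos 3 and 9, and -0.53 without xHomo embryo 3 alone. Between Gnas and Nespas r was -0.0882 (permutation p = 0.809, unchanged when adjusted) and rho -0.0912 (permutation p = 0.806), with 0.172 as r once xHomo embryos 8 and 9 were left out. Between Peg13 and Kcnk9 r was -0.157 (permutation p = 0.671, 0.809 when adjusted) and rho 0.0997 (permutation p = 0.787, 0.806 when adjusted), with 0.163 as r once xHomo embryos 3 and 9 were left out.

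The genes whose levels ran most like a member over the 10 xHomo embryos were sought among 12720 others. For Gnas they were Gcat, Ccni and Anapc11 (Pearson r of 0.986, 0.977 and 0.974). For Peg13 they were Zdhhc7, Vash1 and Stox2 (0.981, 0.966 and 0.965), and for Trappc9 Grn, Man2c1 and Gramd4 (0.971, 0.969 and 0.968). For Nespas, itself low at 0.59 to 1.29 FPKM in these embryos, the highest were Slc16a4, D330028D13Rik and Snora69 (0.859, 0.817 and 0.81). Snora69 was listed at 0 in 7 of the 10 xHomo embryos, so its r rests on few embryos. All values of an embryo share 1 library and its scaling, and the highest of so many correlations are high by selection.

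On chromosome 15, 7 of 9 listed neighbours of Peg13 were tested and 0 passed in limma. At an unadjusted p under 0.05, 2 of 7 were higher and 0 lower, against 7.63% and 1.72% of all genes. Chrac1, a histone-fold chromatin remodelling subunit gene next to Trappc9, had 16.7, 16.8 and 15.7 FPKM in the 3 xHet embryos and 18.3 to 26.6 FPKM among xHomo embryos. The groups did not overlap, as for 1.66% of all genes in this direction, and the log2 difference was 0.37 (SE 0.12, limma adjusted p = 0.481). Khdrbs3, an RNA-binding protein gene, did not overlap either, at 20.4 to 21.6 and 22.3 to 30.7 FPKM (log2 difference 0.25, SE 0.09, limma adjusted p = 0.494). After rescaling to TPM Chrac1 still did not overlap, at most 30.7 in xHet and at least 31.8 in xHomo embryos. After this rescaling 0.949% of all genes were higher without overlap. Khdrbs3 then overlapped, with 39.45 in xHet embryo 2 against 38.55 and 39.37 in xHomo embryos 1 and 2. Slc45a4, a solute carrier gene, stood at 8.87 ± 1.20 and 7.20 ± 1.75 FPKM (SD, n = 3 and 10; limma adjusted p = 0.643).

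Eif2c2 (now Ago2), the Argonaute gene next to Chrac1, was chosen after its values were seen. It was 8.68, 7.77 and 7.32 FPKM in xHomo embryos 4, 5 and 6, above the 4.70 to 5.20 FPKM of the xHet embryos, and 2.73 to 4.99 FPKM in the other xHomo embryos. Among xHomo embryos these are the 3 in which Peg13 and the neuron marker sum were highest. Of the other listed neighbours, only Slc45a4 and, on chromosome 2, Edn3 were highest in the same 3 xHomo embryos. In embryos 4, 5 and 6 Slc45a4 was 9.51, 8.90 and 8.84 FPKM, and Edn3 was 5.41, 5.26 and 4.87 FPKM. Edn3 was also chosen after its values were seen.

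**Figure D4:**
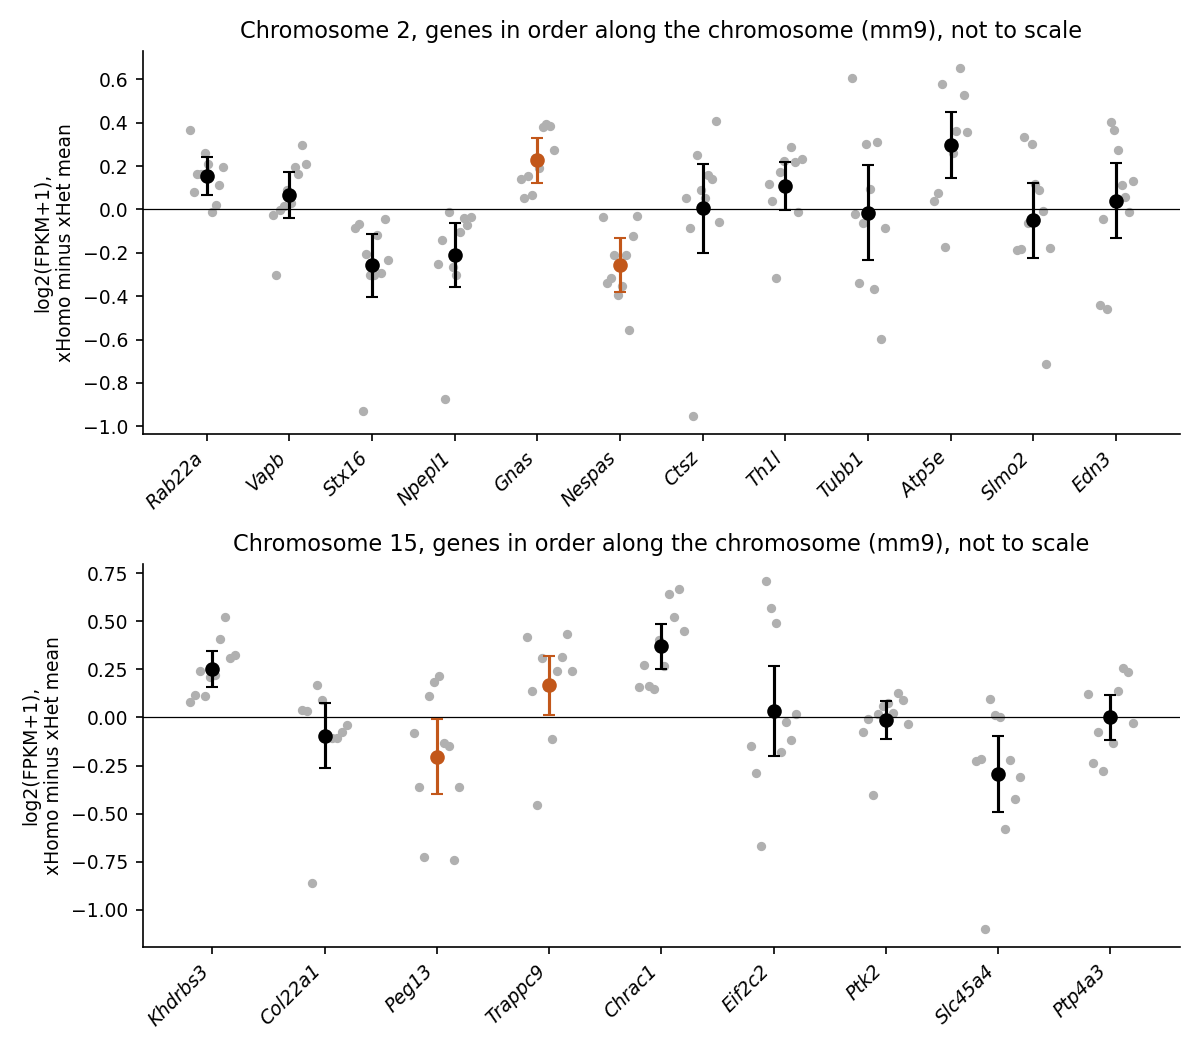
Difference of log2(FPKM+1) between xHomo embryos and the xHet mean (y axis) for tested genes in their order on chromosomes 2 and 15 (x axis, not to scale). Grey points are the 10 xHomo embryos, and larger points with bars are the mean difference and its limma SE, orange for the members; neighbouring genes lie on both sides of 0, and the single lowest points of Stx16, Npepl1, Ctsz, Col22a1 and Slc45a4 are all xHomo embryo 3.

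Cyclic AMP signalling was followed in 40 genes, of which 35 were tested and 0 passed. The list held other G protein subunits as well as genes that act downstream of Gnas, so it is no readout of a downstream response alone. Of those tested 21 were higher and 14 lower in xHomo embryos. Their median log2 difference was 0.06, while 59.7% of all genes tested were higher. Only higher values had an unadjusted p under 0.05, in 3 of 35 genes, close to the 7.63% of all genes. Prkar1a, the main regulatory subunit gene of protein kinase A, stood at 60.6 to 62.4 FPKM in xHet and 62.7 to 84.1 FPKM in xHomo embryos, without overlap, as for 1.66% of all genes (log2 difference 0.21, SE 0.09, limma adjusted p = 0.524). Gnai1, an inhibitory G protein alpha subunit gene, stood at 4.49 ± 0.115 and 6.14 ± 1.38 FPKM (SD, n = 3 and 10; limma adjusted p = 0.521). Gng5, a G protein gamma subunit gene, averaged 160 ± 6.67 FPKM in the xHet group and 207 ± 38.7 FPKM in the xHomo group (limma adjusted p = 0.526).

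Of 16 genes listed beside Trappc9, 14 TRAPP subunits and 2 genes of the NF-kappaB pathway to which Trappc9 has been linked, 14 were tested and 0 passed. Here 12 were higher and 2 lower, with a median log2 difference of 0.14, against 59.7% higher and a median of 0.05 over all genes. With an unadjusted p under 0.05, 4 of 14 were higher, against 7.63% of all genes. Ttc15 (now Trappc12) had 6.47, 6.79 and 6.30 FPKM in the 3 xHet embryos and 6.44 to 10.9 FPKM among xHomo embryos, of which 9 of 10 were above the xHet range (log2 difference 0.44, SE 0.12, limma adjusted p = 0.447). Trappc2l stood at 24.1 ± 1.76 and 30.9 ± 3.15 FPKM (SD, n = 3 and 10; limma adjusted p = 0.449), and Trappc5 at 13.2 ± 3.03 and 16.3 ± 1.52 FPKM (limma adjusted p = 0.50). A list of 13 replication histone genes was included because poly(A) selection should leave them low. Their summed level was 27.6 to 38.0 FPKM in xHet and 37.4 to 95.7 FPKM in xHomo embryos. All 11 tested were higher in xHomo embryos, with a median log2 difference of 0.57. Of these 4 had an unadjusted limma p under 0.05, and 0 passed. The part of this difference in the TRAPP values, or in those of Gnas and the other members, was not tested.

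Of 13 other genes of two-pore potassium channels, the family of Kcnk9, only 4 passed the filter on low values, and 0 of them passed in limma. One was higher and 3 were lower. Kcnk6 stood at 1.68 to 1.76 FPKM in xHet and 0.73 to 1.50 FPKM in xHomo embryos, all 10 of which were lower, as for 0.580% of all genes (log2 difference -0.35, SE 0.12, limma adjusted p = 0.494). Kcnk5 stood at 5.96 ± 0.406 and 5.37 ± 1.24 FPKM, and Kcnk2 at 1.21 ± 0.115 and 1.42 ± 0.420 FPKM (SD, n = 3 and 10; limma adjusted p = 0.799 and 0.842).

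The dissection was checked with marker lists. All 10 markers of the embryo proper were at 1 FPKM or more in all embryos. Summed levels of 10 trophoblast and placenta markers were 0.52 to 1.24 FPKM in xHet and 0.65 to 5.65 FPKM in xHomo embryos, with Tpbpa and Psg18 listed at 0 throughout. For 6 decidua markers the sums were 21.6 to 26.2 and 23.7 to 34.0 FPKM, with Prl3c1 at 0 throughout, and for 8 yolk sac endoderm markers 36.1 to 48.2 and 12.9 to 76.3 FPKM. The decidua sums came mostly from Des, Dcn and Wnt4, with means of 13.4, 5.64 and 4.57 FPKM in xHet embryos. Their xHomo means were 16.4, 6.48 and 5.92 FPKM. The other decidua markers, Prl8a2, Prl3c1 and Prlr, were under the filter on low values. Whether the RNA of Des, Dcn and Wnt4 came from decidua or from the embryo was not tested.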

How the data were processed

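The deposited file lists FPKM by gene for each embryo, to 2 decimals, and gives loci on mm9 per the file headers. The tools named in the submitters' processing notes are bcl2fastq (version 1.8.2), Cufflinks and TopHat. Their settings, and whether strand was used, are not given in the sources. FPKM keeps no read count, so depth is unknown and no counting interval is given. Locus starts count from 0 in the table (in 207 of 484 microRNA genes end minus start equals the hairpin length, in 1 it is a base short) and are printed counted from 1.

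Groups and replicate numbers came from sample titles. Genes averaging 1 FPKM or more were compared on log2(FPKM+1) with limma 3.58.1 in R 4.3.3 (eBayes with a trend, two-sided, Benjamini-Hochberg over all 12755 genes), a step tested on simulated data. Single values had exact permutation tests over all splits of the embryos, correlations 100000 permutations over log2 values. Kcnk9 came from a fit of all 19526 genes above 0. Alternatives covered pseudocount, filter, scaling, Xist, array weights, a replicate block and each embryo left out. Python 3.11.15, numpy 2.4.6, pandas 2.3.3, scipy 1.17.1 and matplotlib 3.10.9 were used.

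Named were the 5 members, the 3 genes of each pathway or neighbour list with the smallest p, and the 3 genes most correlated with each tested member; others are marked as chosen later. Members and lists were chosen with earlier results of these data known.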

Additional observations from a re-analysis of the deposited data

Results flagged for a closer look

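No member of the 2 domains had a xHomo embryo set apart from the other 9 by a gap large for the range, as Dixon's ratio of gap to range measures it at the 95% level on log2 values. Among tested neighbours 8 did. xHomo embryo 3 was lowest and apart in Stx16 (0.706), Npepl1 (0.664), Th1l (0.506), Ctsz (0.636), Col22a1 (0.731) and Ptk2 (0.622). In that embryo 10.2% of all genes lay 1 log2 unit or more from the xHet mean. xHomo embryo 9 was lowest and apart in Slmo2 (0.502), a mitochondrial protein gene, at 15.9 FPKM. Mir298 was above 0 in xHomo embryo 1 alone (1.0). Chance flags about 1 in 20 such groups.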

How the results depend on the processing

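Over all genes 3 passed in limma, all higher. The count was 11 without a filter (3 higher, 8 lower), 1 with a filter at 5 FPKM, 5 after TPM rescaling, 5 after quantile normalization, 1 with the Xist covariate, 2779 with array weights, 8 in embryos with Xist under 1 FPKM (added after seeing the data), 0 in the exact permutation test per gene (smallest adjusted p = 0.388; limma had 1193 genes with an unadjusted p under 0.05), and 1 to 11 leaving out 1 embryo.

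With array weights Gnas (0.27) and Trappc9 (0.25) passed. In the other 24 alternatives each kept its sign without passing, and quantile normalization gave Gnas 0.06. Peg13 turned with the Xist covariate (0.038) and among embryos with Xist under 1 FPKM (0.057). In these 2 settings the log2 difference was 0.20 and 0.21 for Gnas. For Nespas it was -0.32 and -0.31, and neither gene passed in limma. Leaving out 1 embryo gave log2 differences of 0.21 to 0.25 for Gnas, -0.28 to -0.21 for Nespas, -0.27 to -0.09 for Peg13, 0.14 to 0.24 for Trappc9 and -0.01 to 0.10 for Kcnk9, whose sign turned without xHet embryo 1 or 3 (-0.0127 for each). The log2 ratio of Nespas to Gnas ran from -0.79 to -0.63 and lost its call without xHet embryo 1, 2 or 3 (adjusted over both ratios) and among embryos with Xist under 1 FPKM (-0.82, adjusted p = 0.0714, exact permutation). Fewer embryos leave fewer splits, and among those with Xist under 1 FPKM the smallest possible unadjusted exact permutation p is 0.0179. The log2 ratio of Peg13 to Trappc9 ran from -0.51 to -0.32.

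Embryos numbered 1 to 3 occur in both groups, and deviations of same-numbered embryos correlated at -0.0481, -0.0519 and -0.0602. With 3 embryos per group these values cannot show whether a shared number means a shared litter or batch, which the labels do not give. With the replicate number as a block on these 6 embryos 1 gene passed, and log2 differences were 0.12 for Gnas, -0.23 for Nespas, -0.39 for Peg13, 0.03 for Trappc9 and 0.01 for Kcnk9, none of which passed.

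The correlation of Gnas and Nespas turned with median-of-ratios scaling (0.254) and TPM rescaling (0.176, added after seeing the data), and ran from -0.24 to 0.29 leaving out 1 embryo. Peg13 and Trappc9 turned with median-of-ratios scaling (-0.39) and ran from -0.53 to 0.468, Peg13 and Kcnk9 from -0.41 to 0.351, and Trappc9 and Kcnk9 from 0.538 to 0.718. For Peg13 and Trappc9 and for Trappc9 and Kcnk9 no r was computed without xHomo embryo 6, since xHomo embryo 3 then stood apart from the rest in Trappc9. None of these passed. The causes were not tested. Depth is unknown, so counting error cannot be given for any member.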
